A study of Mus musculus with 4 samples.

Results

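The mitotic genes described here are 42 mouse genes, chosen by name, that encode the kinases and cyclins of mitotic entry, the spindle checkpoint, the chromosomal passenger complex, the kinetochore, the mitotic kinesins, spindle and chromosome proteins, and the cytokinesis machinery. Of these 42 genes, 41 had a transcript cluster under their symbol on the array and 39 reached the signal minimum (100 or more on 2 or more arrays), out of 10716 genes that did. No cluster was listed under the symbol Ccnb1, which encodes cyclin B1, so this gene was not analysed here, and Birc5 and Cdca3 stayed under the signal minimum.

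RNA came from splenocytes of 3-week-old DBA/1 mice, before any induction of arthritis, and was hybridised as 4 pools to Clariom D mouse arrays. The BBP pools held 4 males and 6 females born to dams that drank water with 3 μg/ml benzyl butyl phthalate (BBP, a plasticiser) for 1 week ahead of mating and on to weaning, and the control pools held 4 males and 12 females of dams on plain drinking water. With 1 array for each sex and exposure there was no replicate within a sex, so that pools were compared and not animals. The sources used here do not give the litters behind the pools, and an effect of litter cannot be told apart from one of exposure.

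A dividing cell condenses its chromosomes, attaches each to spindle microtubules through a kinetochore and holds back anaphase until every kinetochore is attached, which is the task of the spindle checkpoint. Cyclin-dependent kinase 1 with its cyclins drives entry into this phase, and the anaphase-promoting complex (APC/C) ends it by marking cyclins and securin for destruction. Transcripts of this machinery accumulate in the G2 and M phases and are scarce in resting cells, and in the young mouse spleen the dividing cells include erythroid precursors and lymphocytes.

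Under BBP the mitotic genes were lower in males and in females. The log2 ratio of BBP to control was below 0 in both pairs for 37 of the 39 measured genes (94.9%), against 51.5% of all genes, and for the same 37 genes both BBP pools lay below both control pools, which held for 39.7% of all genes. Their median log2 fold change was -0.60 in the male pair, with a range from -1.27 to -0.02, and -0.50 in the female pair, with a range from -0.92 to 0.16. Over all genes the medians were -0.15 in males and -0.09 in females. After these were subtracted, the medians of the mitotic genes were -0.45 in males and -0.41 in females.

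The differences were moderate in size. At least 1.5-fold lower in both pairs were 11 of the 39 genes (28.2%, against 4.43% of all genes), namely Ccnb2, Plk1, Aurka, Pbk, Spc24, Kif11, Kif15, Tpx2, Hmmr, Top2a and Anln, and 0 reached 2-fold in both pairs, where 0.541% of all genes did. When arrays were brought to the same median this count was 2, and it was 3 after quantile normalization. None of the 39 was higher in both pairs, against 20.1% of all genes, or 1.5-fold higher in both, against 2.49%. All 39 are protein-coding. Of the 7671 protein-coding genes analysed, 3893 were below 0 and 1549 above 0 in both pairs. At least 1.5-fold lower in both were 265 of them, and at least 1.5-fold higher 64, a smaller part than among all genes. In a limma fit over all genes with exposure and sex as terms, 2 mitotic genes passed an adjusted p of 0.05 as lower, Pbk and Spc24 (5.13%, against 1.19% of all genes), and 0 passed as higher, against 1.44%. These calls depended on the setting, since 0 of all genes passed as lower with quantile normalization, with no signal filter, with no sex term or with any pool left out. At an unadjusted p under 0.05 in limma, 31 of the 39 were lower (79.5%, against 21.1% of all genes). As higher 0 of the 39 passed this limit, against 646 of the 10716 genes. Of the 7671 protein-coding genes analysed, 66 passed the adjusted limma threshold as lower and 15 as higher. The negative control features had medians of 51.1 to 64.1 and 90th percentiles of 331 to 452 across the arrays. All 39 genes lay above the median in every pool, while 7 lay below the 90th percentile in all 4 pools, Spc24 among them, and in Pbk the BBP pools lay below it and the control pools above; 16 genes lay at or above it in all 4 pools. Of these 16 genes 15 were below 0 in both pairs, with medians of -0.62 in males and -0.47 in females. The fit has 1 residual degree of freedom, which holds the difference between the male and the female fold change. Its variance is moderated with 3.712 prior degrees of freedom drawn from all genes. Its p-values reach no further than these 4 pools and do not measure the spread between animals. An exact two-sided permutation test of 2 pools against 2 cannot give a p below 0.333. Fewer dividing cells in a pool and less RNA of these genes per cell cannot be told apart in such samples.

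**Figure D1:**
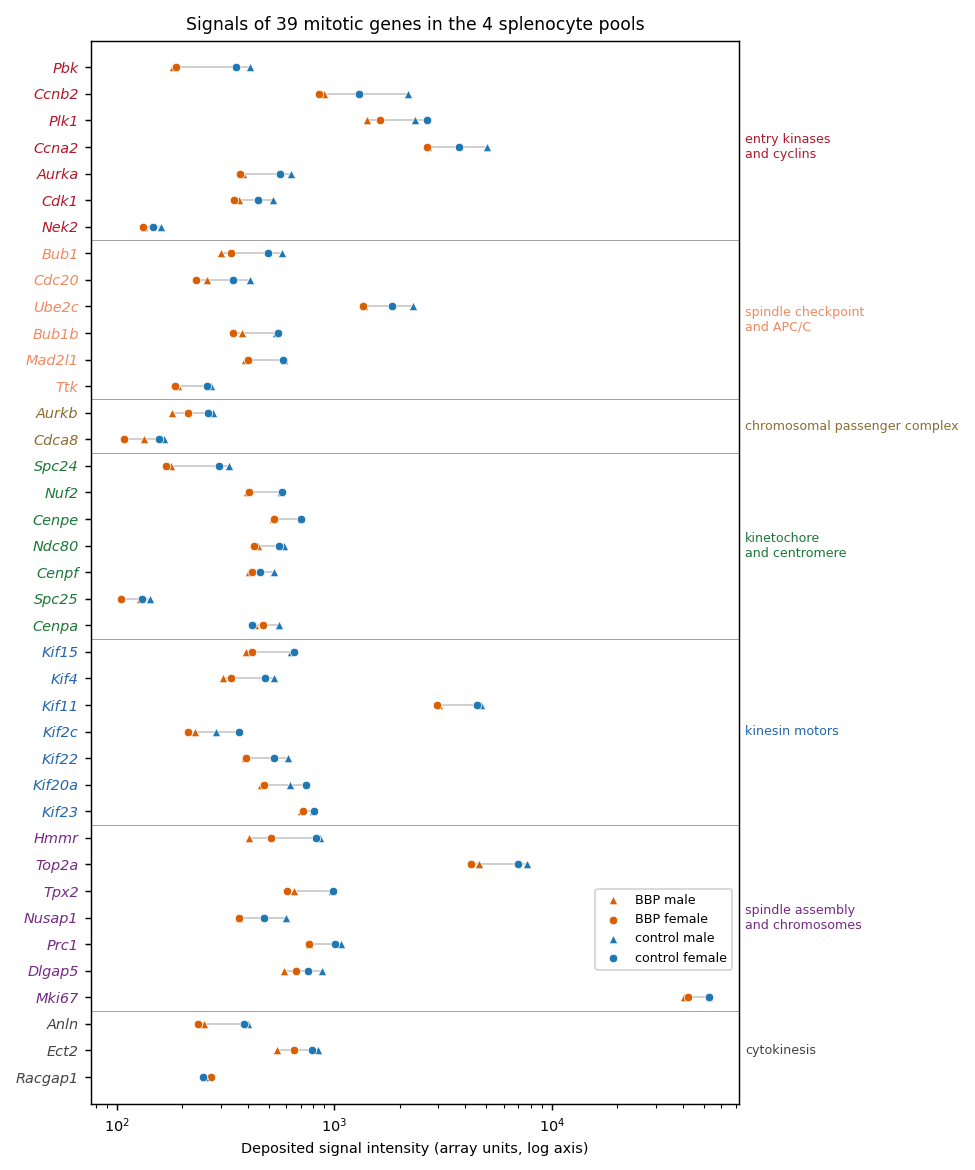
Deposited signal (log axis, array units) of the 39 measured mitotic genes in each pool, with BBP in orange, control in blue, triangles for males and circles for females, ordered within each role by the mean log2 ratio of BBP to control. In 37 genes both orange points lie left of both blue points, and the exceptions are Cenpa and Racgap1.

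Most promoters of these genes hold a common sequence element. The cell cycle genes homology region (CHR), whose letters are TTTGAA in one form and TTTAAA in another, is known as the element that the DREAM complex binds in resting cells and the MuvB complex with B-Myb and FoxM1 in dividing cells, and the CCAAT box is the site of the factor NF-Y. RefSeq promoters (GRCm38.p6, 250 bases before to 50 after a start) were given for 35 of the 42 genes, with 37 promoters in all since Prc1 and Ect2 have a pair of overlapping ones. Cdk1, Ccnb2, Cdc20, Kif11, Hmmr and Top2a are printed as examples with both elements from the entry, checkpoint, kinesin and spindle assembly roles. Cenpa and Racgap1 are printed because they are the genes whose pairs differed in sign. Each stretch is written 5′ to 3′ on the strand of the gene and runs from 120 bases before the annotated start to 30 after it. Capitals mark either form of CHR and the CCAAT box on both strands, so that a TTTGAA on the other strand reads TTCAAA here and a CCAAT box there reads ATTGG.
Cdk1: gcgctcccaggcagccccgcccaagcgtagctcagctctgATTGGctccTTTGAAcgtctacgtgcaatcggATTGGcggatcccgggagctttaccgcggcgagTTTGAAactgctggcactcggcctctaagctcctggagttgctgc
Ccnb2: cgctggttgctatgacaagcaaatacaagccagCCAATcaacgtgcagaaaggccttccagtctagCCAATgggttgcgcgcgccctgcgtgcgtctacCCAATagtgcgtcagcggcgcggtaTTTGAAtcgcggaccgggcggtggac
Cdc20: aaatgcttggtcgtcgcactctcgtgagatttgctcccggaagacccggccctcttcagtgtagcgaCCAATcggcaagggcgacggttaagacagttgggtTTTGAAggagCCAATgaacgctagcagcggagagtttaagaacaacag
Kif11: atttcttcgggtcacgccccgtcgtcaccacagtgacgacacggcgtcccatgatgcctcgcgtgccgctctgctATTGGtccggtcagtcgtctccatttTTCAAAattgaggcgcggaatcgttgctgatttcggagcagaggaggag
Hmmr: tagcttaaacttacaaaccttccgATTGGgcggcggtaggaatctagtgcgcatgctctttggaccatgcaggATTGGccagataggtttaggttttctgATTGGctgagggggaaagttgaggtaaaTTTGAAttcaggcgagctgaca
Top2a: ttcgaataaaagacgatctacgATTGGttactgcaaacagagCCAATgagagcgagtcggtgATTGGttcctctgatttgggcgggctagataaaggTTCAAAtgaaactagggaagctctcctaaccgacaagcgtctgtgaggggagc
Cenpa: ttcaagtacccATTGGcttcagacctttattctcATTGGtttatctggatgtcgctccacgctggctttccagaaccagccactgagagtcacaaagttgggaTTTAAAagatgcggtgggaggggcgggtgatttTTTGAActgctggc
Racgap1: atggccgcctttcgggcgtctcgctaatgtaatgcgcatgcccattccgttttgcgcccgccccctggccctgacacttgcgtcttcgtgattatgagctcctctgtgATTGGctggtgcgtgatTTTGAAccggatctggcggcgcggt

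The stretches lie at chr10:69352883-69353032 (minus strand) for Cdk1, chr9:70421525-70421674 (minus strand) for Ccnb2, chr4:118437314-118437463 (minus strand) for Cdc20, chr19:37376262-37376411 (plus strand) for Kif11, chr11:40733408-40733557 (minus strand) for Hmmr, chr11:99024160-99024309 (minus strand) for Top2a, chr5:30666766-30666915 (plus strand) for Cenpa and chr15:99651627-99651776 (minus strand) for Racgap1. In Cdk1 the matches to TTTGAA begin 71 and 15 bases before the start, with CCAAT boxes in reverse orientation that begin 80 and 48 bases before it. In Ccnb2 TTTGAA begins 5 bases after the start and follows 3 CCAAT boxes, and in Hmmr it begins 9 bases after the start and follows 3 of them within the stretch. In Kif11 and Top2a the element stands in reverse orientation and begins 19 and 23 bases before the start. Cenpa and Racgap1 hold TTTGAA as well, beginning 17 and 6 bases after the start. A match of these letters is a description of the sequence and does not show that a factor binds there.

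Over the full promoter, TTTGAA was found in 29 of the 37 promoters (78.4%, with a 95% Wilson interval of 62.8% to 88.6%). This compares with 17.9% of all 32851 promoters in the table and 13.0% of the 8178 promoters of genes analysed here. The interval takes promoters as independent draws, though the overlapping pairs of Prc1 and Ect2 share a match and the genes were chosen by name. TTTAAA was found in 9 (24.3%, against 13.2% of all) and CCAAT in 29 (78.4%, against 37.4% of all). A form like CHR, TTCGAA, was found in 3 (8.1%, against 1.56% of all), those of Bub1, Bub1b and Top2a. In Bub1 it begins 15 bases after the start. Either form of CHR together with a CCAAT box was found in 27 (73.0%, against 10.7% of all). Motifs were searched on both strands, and matches of different motifs may overlap, as a CHR and a CCAAT box do in Cdca8. The GC box, GGGCGG, was found in 28 (75.7%), against 35.7% of all promoters and 61.5% of the promoters of analysed genes. Of the forms searched for E2F, TTTCGCGC was found in 1 promoter and TTTGGCGC in 1 (2.7% each). Of all promoters 0.32% and 0.51% held these forms, and of the promoters of analysed genes 0.70% and 1.04%.

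The matches lay mostly around the start. TTTGAA began between 25 bases before and 50 after it in 25 of the 37 promoters (67.6%), against 3.57% of all promoters. Measured genes with a promoter and neither TTTGAA nor TTTAAA were 5, namely Nek2, Bub1, Mad2l1, Nuf2 and Nusap1. Of these 5, Nek2 and Bub1 do hold CCAAT boxes. The male and female log2 fold changes of these 5 genes ran from -0.93 to -0.16, which lies within the range of the others, and the absence of these letters from a window of this length says nothing on the factors. Of the replication genes listed for comparison, which were lower as well, 3 of 23 promoters held TTTGAA. Among the APC/C subunits 2 of 18 did.

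**Figure D2:**
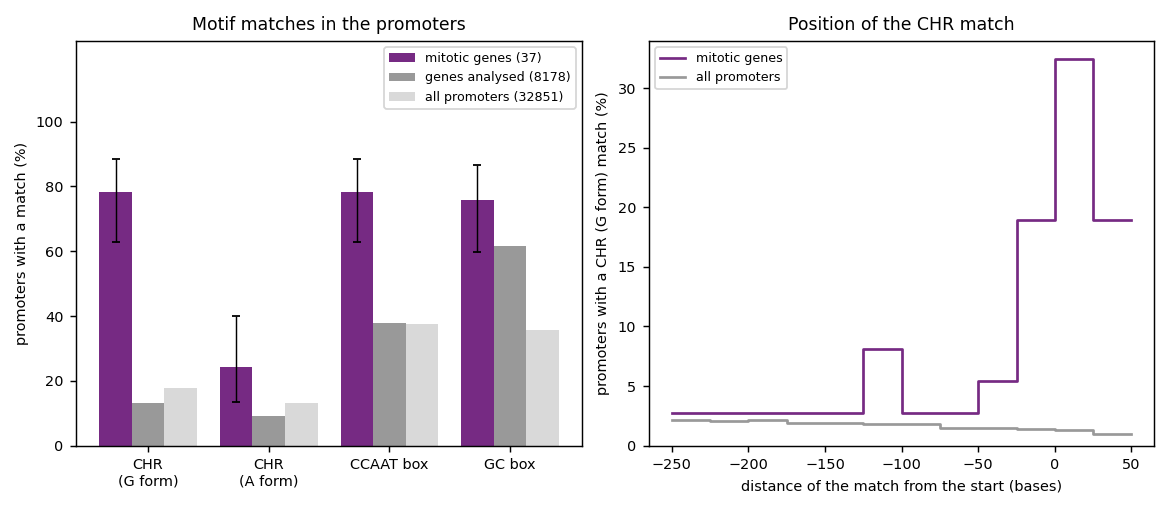
Left, percentage of promoters (250 bases before to 50 after the start) with a match for the mitotic genes (purple, bars with 95% Wilson intervals), the genes analysed (grey) and all promoters of the table (light grey); G form is TTTGAA and A form TTTAAA. Right, percentage of promoters with TTTGAA in each bin of 25 bases against the distance from the start in bases, where the mitotic genes peak at 32.4% just after the start.

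Among the kinases and cyclins of mitotic entry, 7 of 8 genes were measured, all 7 were below 0 in both pairs and 4 were at least 1.5-fold lower in both, with medians of -0.73 in males and -0.61 in females. Pbk, a kinase of dividing cells also known as TOPK, gave signals of 181.7 in the male and 187.5 in the female BBP pool, against 411.8 and 354.0 in the male and female control pools. The BBP pools were close to each other and both lay well under the control pools. Its log2 fold change was -1.18 in the male and -0.92 in the female pair, with a limma estimate of -1.05 ± 0.13 (SE, adjusted p = 0.0394). This was the most negative estimate of the whole set, and over the alternative settings its adjusted p ranged from 0.0396 to 0.571.

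Cdk1, the kinase that drives mitotic entry, had 366.2 and 345.7 in the male and female BBP pools, against 523.9 and 445.3 in the male and female control pools. The groups did not overlap, with log2 fold changes of -0.52 in males and -0.37 in females (limma adjusted p = 0.104). Ccnb2, encoding cyclin B2, had 898.3 and 847.9 in the male and female BBP pools, against 2170.0 and 1292.3 in the control pools. The control male pool stood highest by far, and the log2 fold change was -1.27 in males, the most negative male value of the set, and -0.61 in females (limma adjusted p = 0.0776). The limma estimate of -0.94 was at -0.57 without the control male pool. Ccna2, the cyclin A2 gene, showed the same order with 2692.3 and 2672.8 in the male and female BBP pools, against 5022.4 and 3759.2 in the control pools.

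Plk1, the polo-like kinase of centrosomes and kinetochores, had 1418.9 and 1627.8 in the male and female BBP pools, against 2347.9 and 2666.7 in the control pools. Here the female pool was the higher one under both exposures, and the log2 fold changes were nearly equal, with -0.73 in males and -0.71 in females (limma adjusted p = 0.0662). Aurka, the kinase of spindle poles, had log2 fold changes of -0.73 in males and -0.61 in females. Nek2, a kinase of centrosome separation, gave 132.9 and 131.9 in the male and female BBP pools, against 160.4 and 147.5 in the control pools. Its values were not far above the signal minimum, and the difference was small, at -0.27 in males and -0.16 in females (limma adjusted p = 0.345).

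All 6 genes of the spindle checkpoint and the APC/C activators were below 0 in both pairs, with medians of -0.63 in males and -0.54 in females, and 0 of them were 1.5-fold lower in both. Bub1, a checkpoint kinase that sits at kinetochores, had 300.0 and 333.8 in the male and female BBP pools, against 573.0 and 497.6 in the control pools. With log2 fold changes of -0.93 in males and -0.58 in females, it missed the 1.5-fold limit narrowly in the female pair (limma adjusted p = 0.0661). Ttk, the kinase Mps1 that starts checkpoint signaling, had 190.7 and 184.6 in the male and female BBP pools, against 270.2 and 261.2 in the control pools. Both pairs gave a log2 fold change of -0.50 (limma adjusted p = 0.0862), the closest match between the sexes within this group.

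Bub1b, encoding the checkpoint protein BubR1, was at -0.51 in males and -0.68 in females, and Mad2l1, encoding the Mad2 protein that binds Cdc20, was at -0.60 and -0.53. Cdc20, the APC/C activator on which the checkpoint acts, had log2 fold changes of -0.66 in males and -0.56 in females (limma adjusted p = 0.0679). Its BBP pools had 259.3 in males and 232.3 in females, against 408.6 and 342.5 in the control pools. Ube2c, the ubiquitin-conjugating enzyme that works with the APC/C, had 1366.8 and 1351.0 in the male and female BBP pools, against 2308.5 and 1837.2 in the control pools. In neither gene did the groups overlap.

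Of the chromosomal passenger complex, which corrects faulty attachments of chromosomes to the spindle, Aurkb and Cdca8 were measured. Aurkb, its kinase, had 179.5 and 212.2 in the male and female BBP pools, against 277.1 and 263.9 in the control pools, with log2 fold changes of -0.63 in males and -0.31 in females (limma adjusted p = 0.119). Cdca8, encoding borealin, had 133.5 and 108.2 in the male and female BBP pools, against 164.4 and 156.4 in the control pools, with -0.30 in males and -0.53 in females (limma adjusted p = 0.152). The sexes thus took opposite order in the pair of genes. Birc5, encoding survivin, lay outside the signal minimum with 46.1 and 43.9 in the male and female BBP pools, against 73.4 and 59.2 in the control pools. These signals are at the level of the negative control features, whose medians were 51.1 to 64.1, and no weight is put on their ratio.

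At kinetochores and centromeres the medians were nearer to 0, with 6 of 7 genes below 0 in both pairs and a median of -0.39 in each sex. Spc24, a subunit of the NDC80 complex that grips microtubules, was the exception in size. It had 178.3 and 168.2 in the male and female BBP pools, against 326.7 and 294.3 in the control pools, and the groups did not overlap. The log2 fold changes were -0.87 in males and -0.81 in females, with a limma estimate of -0.84 ± 0.12 (SE, adjusted p = 0.0446, with 0.0479 to 0.571 over the alternatives). The other subunits of the same complex gave less. Ndc80 was at -0.39 in both sexes, Nuf2 at -0.52 in males and -0.50 in females, and Spc25, the partner of Spc24 in the complex, at -0.17 and -0.33. Spc25 was the measured gene nearest the signal minimum, with 127.3 and 104.3 in the male and female BBP pools, against 142.9 and 130.7 in the control pools.

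Cenpa, the histone H3 variant that marks centromeres, was not lower throughout. It had 432.9 and 467.8 in the male and female BBP pools, against 557.1 and 417.7 in the control pools, so that both BBP values lay between the control ones. The log2 fold change was -0.36 in males and 0.16 in females (limma estimate -0.10 ± 0.17, SE, adjusted p = 0.732), and the difference between the sexes was not tested, since the fit leaves no degree of freedom for it. Cenpe, a kinetochore motor, had -0.43 in males and -0.41 in females, and Cenpf, a large protein of the outer kinetochore, had -0.39 and -0.12.

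All 7 kinesin motors were below 0 in both pairs, with medians of -0.65 in males and -0.62 in females. Kif11, the Eg5 motor that pushes spindle poles apart, had 3022.9 and 2947.6 in the male and female BBP pools, against 4732.1 and 4530.3 in the control pools. Kif15, a motor that shares this task, had 394.4 and 419.4 in the male and female BBP pools, against 629.6 and 649.6 in the control pools. In both motors the sexes agreed closely within each exposure, with log2 fold changes of -0.65 in males and -0.62 in females for Kif11 (limma adjusted p = 0.0806) and -0.67 and -0.63 for Kif15 (limma adjusted p = 0.0614). Kif23, the motor of the central spindle, differed least, with 703.2 and 714.6 in the male and female BBP pools, against 801.8 and 808.2 in the control pools. It had log2 fold changes of -0.19 in males and -0.18 in females (limma adjusted p = 0.370), and the limma estimate of -0.18 was at -0.04 after quantile normalization.

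Kif4, a motor on chromosome arms, had log2 fold changes of -0.78 in males and -0.52 in females, and Kif22, another chromosome motor, had -0.66 and -0.43. Kif20a, which moves the passenger complex to the central spindle, was at -0.44 in males and -0.64 in females. Kif2c, a kinesin that takes microtubules apart at centromeres, differed most between the sexes in this group. It had 229.7 and 211.9 in the male and female BBP pools, against 284.7 and 365.5 in the control pools, where the control female pool stood out as the highest, and its log2 fold changes were -0.31 in males and -0.79 in females.

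All 7 measured genes of spindle assembly and chromosomes were below 0 in both pairs, with medians of -0.59 in males and -0.40 in females. Hmmr, a spindle pole protein that also binds hyaluronan, had 403.9 and 509.7 in the male and female BBP pools, against 854.9 and 827.7 in the control pools. The BBP male pool was the lowest, and the log2 fold changes were -1.08 in males and -0.70 in females (limma adjusted p = 0.0560). Top2a, the topoisomerase that untangles sister chromatids, had 4624.6 and 4260.5 in the male and female BBP pools, against 7676.8 and 7013.4 in the control pools. It was lower by nearly the same ratio in both sexes, with log2 fold changes of -0.73 in males and -0.72 in females (limma adjusted p = 0.0720).

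Mki67, encoding the Ki-67 protein that coats mitotic chromosomes and serves as a label of proliferating cells, had 40322.3 and 42283.8 in the male and female BBP pools, against 52492.1 and 52902.8 in the control pools. The groups were apart, but the log2 fold changes of -0.38 in males and -0.32 in females were the least negative mean of the group (limma adjusted p = 0.198). The difference depended on the scaling, since the limma estimate for Mki67 was -0.35 with the deposited scaling, -0.21 with arrays brought to the same median and -0.01 after quantile normalization. Tpx2, which activates Aurora A on the spindle, had -0.59 in males and -0.70 in females. Nusap1, a protein that bundles spindle microtubules, had -0.73 and -0.37, Prc1, which crosslinks the central spindle, had -0.49 and -0.40, and Dlgap5, which stabilises microtubules near chromosomes, had -0.58 and -0.18. Cdca3, a gene of mitotic entry, was outside the signal minimum with 44.9 and 44.1 in the male and female BBP pools, against 61.1 and 48.8 in the control pools.

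The 3 cytokinesis genes did not share one pattern. Anln, encoding the contractile ring scaffold anillin, had 251.3 and 236.0 in the male and female BBP pools, against 403.1 and 385.0 in the control pools, with log2 fold changes of -0.68 in males and -0.71 in females (limma adjusted p = 0.0551). Ect2, the exchange factor that switches on RhoA at the cleavage site, had -0.64 in males and -0.27 in females. Racgap1, which together with Kif23 forms the centralspindlin complex, had 251.4 and 270.9 in the male and female BBP pools, against 255.5 and 249.7 in the control pools. All 4 values lay close together and the groups overlapped, with log2 fold changes of -0.02 in males and 0.12 in females (limma adjusted p = 0.827). Both centralspindlin genes were thus among the smallest differences of the set.

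**Figure D3:**
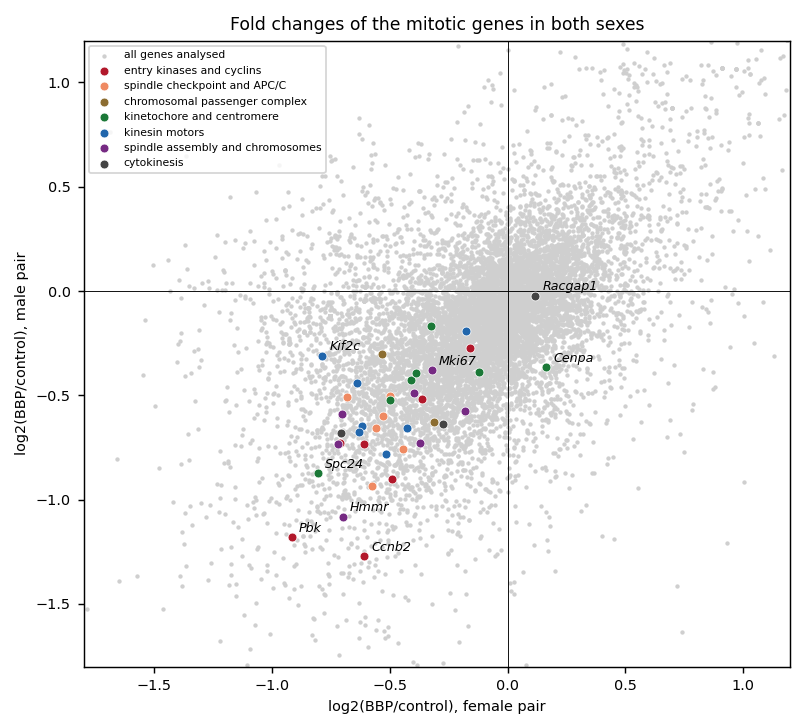
Log2 ratio of BBP to control in the female pair (horizontal axis) and the male pair (vertical axis) for all genes analysed (grey) and the mitotic genes (coloured by role), over the range from -1.8 to 1.2, outside which 209 genes lie. The mitotic genes gather in the lower left quadrant, with Pbk at -0.92 on the horizontal and -1.18 on the vertical axis, and only Cenpa and Racgap1 lie right of 0.

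The fold change was more negative in males than in females for 32 of the 39 genes (82.1%, against 59.6% of all genes and 67.5% of the protein-coding ones). In the BBP pools the male signal was above the female one for 18 of 39 genes, with a median log2 ratio of male to female of -0.01. This was 46.2%, against 42.0% of all genes and 30.9% of the protein-coding ones. In the control pools the male signal was above for 30 of 39 (76.9%, against 53.4% and 50.1%), with a median of 0.09. The sexes lay closer together under BBP in Ccnb2, with a log2 ratio of male to female of 0.08 in the BBP pools and 0.75 in the control pools, and Ccna2, with 0.01 in the BBP and 0.42 in the control pools. Kif2c was higher in females among the control pools, with a log2 ratio of 0.12 in the BBP and -0.36 in the control pools. Other genes lay further apart under BBP. Hmmr had -0.34 in the BBP and 0.05 in the control pools, Cdca8 had 0.30 and 0.07, and Aurkb and Ect2 went the same way as Hmmr. With 1 pool for each sex and exposure this difference of differences has no test. In the sex term of the limma fit 0 mitotic genes passed in either direction, where 0.56% of all genes were higher and 0.0373% lower in males. At an unadjusted p under 0.05 in that term were 0 of the 39, against 1657 of the 10716 genes.

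**Figure D4:**
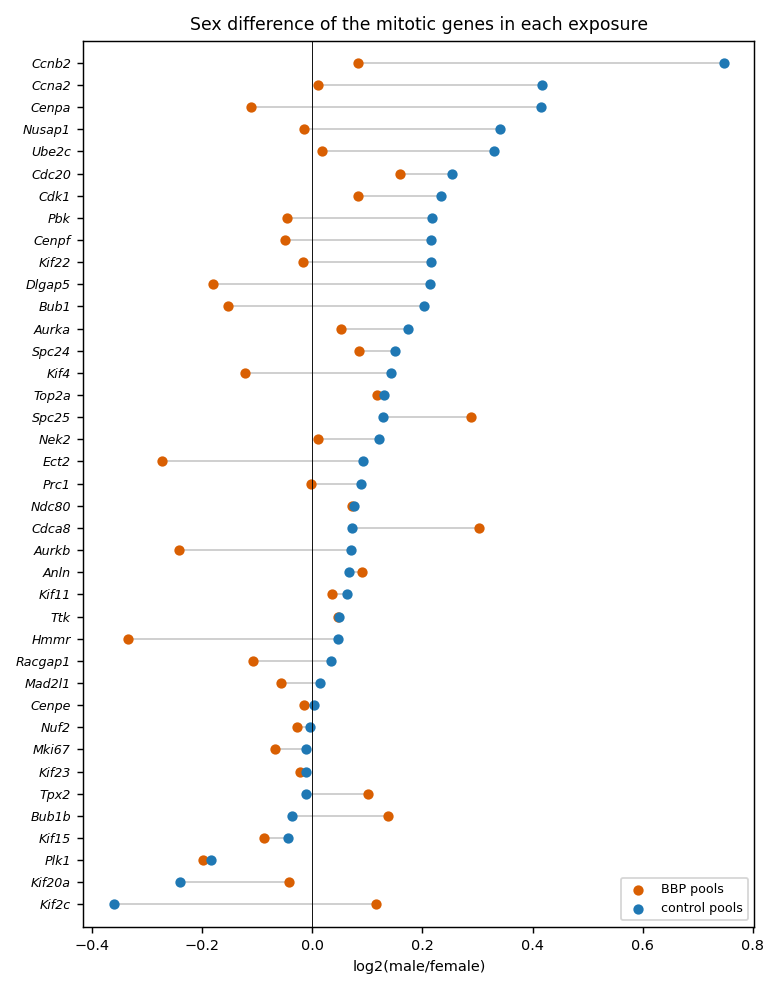
Log2 ratio of the male to the female signal of each measured mitotic gene in the BBP pools (orange) and the control pools (blue), sorted by the control value. Orange points lie right of 0 for 18 genes and blue points for 30, and Ccnb2 has the widest gap, with 0.08 in the BBP pools and 0.75 in the control pools.

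Further genes of mitosis that are not part of the 42 had medians nearer to 0. Of 103 such genes of kinetochore, mitotic control, spindle and cytokinesis, 79 were measured, with medians of -0.44 in males and -0.26 in females. In both pairs 67 were below 0 and 5 above 0, against 51.5% and 20.1% of all genes. At least 1.5-fold lower in both were 4 and at least 1.5-fold higher 0, against 4.43% and 2.49% of all genes. The count at least 1.5-fold lower thus lay near the share of all genes. Over all genes 1.19% passed limma as lower and 1.44% as higher. In this list, near those shares, 1 gene passed limma as lower and 0 as higher. It was Kntc1, a subunit of the RZZ complex that recruits the checkpoint to kinetochores, with 161.2 and 158.2 in the male and female BBP pools, against 297.5 and 268.2 in the control pools (limma log2 fold change -0.82 ± 0.12, SE, adjusted p = 0.0489), and it was singled out after its values were seen. All 4 of its signals lie below the 90th percentile of the negative control features. Cenph and Cenpm, of the inner kinetochore, had log2 fold changes of -0.99 and -0.92 in the male pair and -0.69 and -0.72 in the female pair. Cenpm, with all 4 signals below that percentile, is among the 4 genes at least 1.5-fold lower. It reached the signal minimum in the control pools alone, as did Cenpi, Sgo2a, Melk and Pttg1, so these genes could only be counted as lower. Cdc14b reached it in the BBP pools alone and could only be counted as higher. Hjurp, the chaperone that loads Cenpa, had -0.08 in males and 0.09 in females, and like Cenpa it differed in sign between the pairs.

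Of the regulators of mitotic entry and exit, Cdca5, encoding the cohesin protector sororin, had -0.68 in males and -0.60 in females, and Cks1b, a small partner of cyclin-dependent kinases, had -0.83 and -0.50. Nek9, a kinase of spindle assembly, was at 0.05 in males and 0.02 in females. Of the further spindle and cytokinesis genes, Shcbp1, a partner of centralspindlin, had -1.03 and -0.36, Haus1, of the augmin complex, had -0.95 and -0.41, and Cdc14b, a phosphatase, had 0.30 in both. Among the APC/C subunits and partners 9 of 15 genes were below 0 and 1 was above 0 in both pairs, against 51.5% of all genes below 0, with medians of -0.37 and -0.18. Ube2s, which extends the ubiquitin chains on APC/C substrates, was the most negative of them, with 755.2 and 701.8 in the male and female BBP pools, against 1752.2 and 1113.2 in the control pools. Anapc10, a subunit that helps to bind substrates, had -0.68 in males and -0.50 in females, and Anapc15, a small subunit, had 0.14 and 0.05. For condensin and cohesin 13 of 17 genes were below 0 and 1 above 0 in both pairs, against 51.5% and 20.1% of all genes. The medians were -0.27 in males and -0.14 in females. There Smc2, a condensin subunit, had -0.68 in males and -0.66 in females, Ncapg2, of condensin II, had -0.83 and -0.53, and Nipbl, the cohesin loader, had 0.17 and 0.20.

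The kinesins of transport carry cargo along microtubules and are not specific to mitosis. Of 8 measured genes 1 was below 0 and 3 were above 0 in both pairs, against 51.5% and 20.1% of all genes. The medians were 0.13 in males and -0.08 in females. Kif21b, a motor of lymphocytes and neurons, had 6409.9 and 7575.9 in the male and female BBP pools, against 3496.7 and 4228.0 in the control pools, and both BBP values lay above both control values (limma log2 fold change 0.86 ± 0.14, SE, adjusted p = 0.0570). Kifap3 and Klc1, adaptors of such motors, had -0.41 and 0.07 in males and -0.25 and -0.15 in females. Of the DREAM complex and the brakes on the cell cycle, 9 of 16 genes were below 0 and 2 above 0 in both pairs, against 51.5% of all genes below 0. Cdkn1a and Cdkn2c, among these 9, reached the signal minimum in the control pools alone and could only be counted as lower. Tfdp1, the partner of E2F proteins, had -0.71 in males and -0.73 in females. E2f4, a repressor E2F of the DREAM complex, had -0.97 in males and -0.28 in females, and Btg1, an antiproliferative gene of resting lymphocytes, had 69632.8 and 72971.6 in the male and female BBP pools, against 36195.4 and 45618.7 in the control pools (limma adjusted p = 0.0687).

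The MCM helicase and replication genes, which act in S phase before mitosis, had more negative medians than the mitotic genes. All 19 measured genes were below 0 in both pairs, against 51.5% of all genes. At least 1.5-fold lower in both were 13 (against 4.43%) and at least 2-fold lower 5 (against 0.541%). In limma 7 passed as lower (against 1.19%) and 0 as higher (against 1.44%). Mcm10, Gins1 and Fen1 reached the signal minimum in the control pools alone, so they could only be counted as lower. Gins1 is among the 13 genes at least 1.5-fold lower. The medians were -1.01 in males and -0.69 in females. The medians of the mitotic genes, at -0.60 and -0.50, stood between these and the medians of all genes, and the difference between the lists was not tested. Cdc6, which loads the helicase onto origins, had log2 fold changes of -1.31 in males and -1.26 in females (limma adjusted p = 0.0320), beyond every mitotic gene in its mean. Rrm2, a subunit of ribonucleotide reductase, had -1.36 in males and -1.17 in females, and Cdt1, a licensing factor, had the value nearest to 0 with -0.34 and -0.23. The helicase genes Mcm2, Mcm5 and Mcm6 were the others at least 2-fold lower in both pairs, with -1.31, -1.07 and -1.07 in males and -1.10, -1.20 and -1.07 in females.

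**Figure D5:**
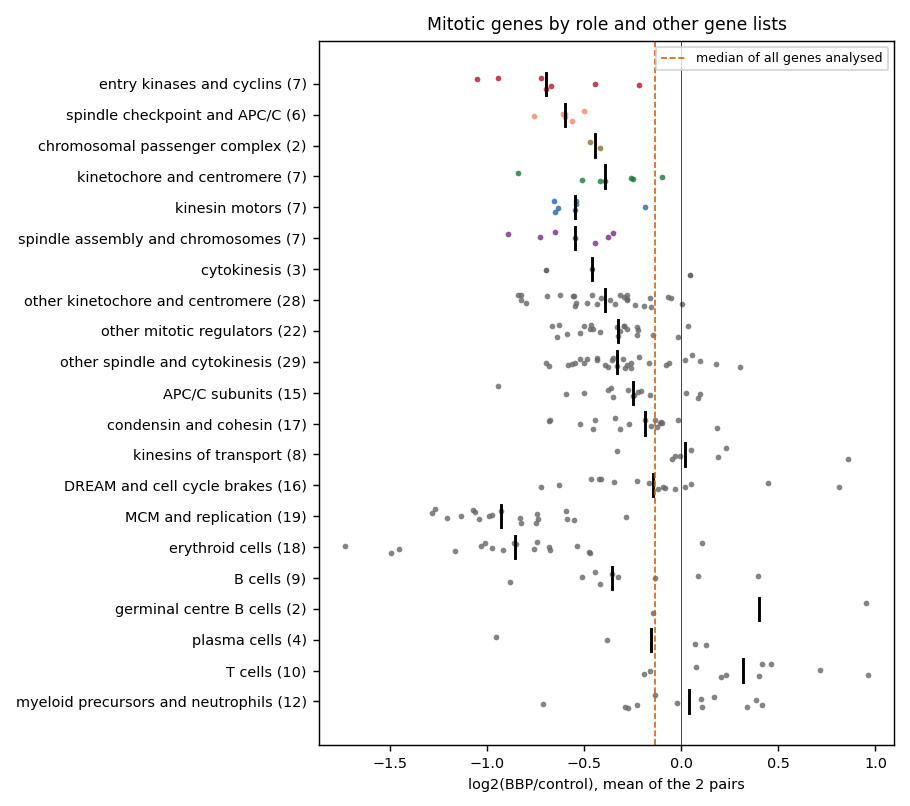
Mean log2 ratio of BBP to control over both pairs, one point for each measured gene, for the mitotic genes by role (coloured) and for other gene lists (grey), with black bars at the medians, the number of measured genes in brackets and a dashed line at the median of all genes. The medians of the mitotic roles, the replication list and the erythroid list lie left of the dashed line, and those of the transport kinesins and the T cell list right of it.

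Markers of cell types differed between the pools as well. Of 23 erythroid markers 18 were measured, and 14 were below 0 in both pairs, against 51.5% of all genes. At least 1.5-fold lower in both were 7 (against 4.43%). In limma 3 passed as lower (against 1.19%) and 0 as higher (against 1.44%). Klf1, Gata1, Add2 and Nfe2 reached the signal minimum in the control pools alone, so they could only be counted as lower. Klf1, Gata1 and Add2 are among the 7 genes at least 1.5-fold lower, and Klf1 is among the 3 past limma. The medians were -1.24 in males and -0.41 in females. Hbb-bs, Hba-a1 and Hba-a2 had no cluster of their own under their symbol. Klf1, a transcription factor of red cell precursors, had 74.2 and 63.1 in the male and female BBP pools, against 213.5 and 173.9 in the control pools. Its BBP signals lie near the medians of the negative control features, 51.1 to 64.1. Cldn13, a claudin of mouse erythroid cells, had log2 fold changes of -1.97 in males and -1.48 in females, and Slc4a1, the band 3 anion exchanger, had -1.13 and 0.18. The summed erythroid signal was 60373 in the male and 62218 in the female BBP pool, against 113522 in the male and 53882 in the female control pool. Alas2, the first enzyme of heme synthesis in red cells, made up much of that sum, with 35989.8 and 29441.7 in the male and female BBP pools, against 53453.7 and 17096.2 in the control pools. Without it, as chosen after the values were seen, the sums were 24383 in the male and 32776 in the female BBP pool, against 60068 and 36786 in the control pools, so the direction in the female pair turned on this gene. The part of erythroid cells in the result was not tested beyond these values.

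Of 10 B cell markers 9 were measured, with medians of -0.37 in males and -0.34 in females. In both pairs 7 were below 0 and 1 above 0, against 51.5% and 20.1% of all genes. Cd79b, a chain of the B cell receptor, had 68119.2 and 61121.6 in the male and female BBP pools, against 87742.2 and 77622.3 in the control pools. Ms4a1, encoding CD20, had log2 fold changes of -0.45 in males and -0.44 in females. The summed B cell signal was 222167 and 226701 in the male and female BBP pools, against 287405 and 292522 in the control pools. T cell markers, measured for 10 of 11 genes, had medians of 0.10 in males and 0.48 in females, with sums of 52932 and 92199 in the male and female BBP pools, against 40340 and 59316 in the control pools. In both pairs 6 T cell markers were above 0 and 1 was below 0, against 20.1% and 51.5% of all genes. Cd3e, a chain of the T cell receptor complex, had 0.10 in males and 0.70 in females, and Cd8b1, a chain of CD8, had 0.72 and 0.70. Other markers went lower, with Cd3d at -0.68 in males and 0.31 in females and Cd2 at -0.22 and -0.10. Of 8 germinal centre B cell markers 2 reached the signal minimum, Bcl6 and Fas. Fas, a death receptor that many activated lymphocytes carry too, had 754.5 and 600.4 in the male and female BBP pools, against 356.3 and 339.9 in the control pools (limma adjusted p = 0.0430), and Bcl6 had log2 fold changes of 0.05 in males and -0.34 in females. Plasma cell markers, measured for 4 of 8 genes, had medians of -0.35 in males and -0.08 in females, and Jchain and Irf4 had -0.19 and 0.18 in males and 0.34 and 0.08 in females. For 12 of 12 myeloid markers the medians were 0.23 in males and -0.24 in females. In both pairs 4 were below 0 and 1 above 0, and 7 had opposite signs, against 51.5%, 20.1% and 27.8% of all genes. S100a8 and Lyz2, the brightest, had -0.00088 and -0.36 in males and -0.04 and -1.06 in females. Ltf and Mpo had 0.90 and 0.70 in males and -0.07 and -0.37 in females. The part of these cells in the values of the mitotic genes was not tested.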

How the data were processed

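RNA of 4 pools was measured on 1 Clariom D array each. The authors used MAS 5.0 (named MAS5 by the submitters' processing notes) for signal extraction and scaling between arrays. The deposited values are linear signal intensity, scaled to a target that the sources used here do not name. Gene symbols came from the array's annotation table and were brought to RefSeq names (30736 of 30738 found). Left out were 1522 clusters under several symbols and 33142 under none. Each symbol kept its brightest cluster, and a gene needed 100 or more on 2 or more arrays. The median over genes was 470.1 in the BBP male, 476.1 in the BBP female, 527.1 in the control male and 516.7 in the control female pool. The number of arrays limits the precision.

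log2 ratios were computed within each sex from the deposited signals, without a pseudocount. limma 3.58.1 (R 4.3.3; lmFit, eBayes with a trend) modelled the log2 signals by exposure plus sex, with Benjamini-Hochberg adjustment over 10716 genes and a threshold of 0.05. It was tested on simulated data in 10 sets with 200 changed genes. There it recovered 47.9% of the 2-fold and 96.7% of the 4-fold changes, and 7.26% of its calls were false. The simulated noise was independent between genes, with the spread of the fit itself, no sex effect and no shift between arrays. These rates therefore need not hold for the deposited data. Other steps used Python 3.11.15, pandas 2.3.3, numpy 2.4.6, scipy 1.17.1 and matplotlib 3.10.9. The mitotic genes, the 8 pathway and 6 marker lists and the motifs were chosen with earlier results of these data known. Signals of all pools are given for the most and least negative gene of each role, genes past limma, genes whose pairs differ in sign, for Cdk1, Plk1, Top2a and Mki67 and for further members; each pathway list names the 2 most negative genes, the most positive one and those 2-fold lower in both pairs, and each marker list the 2 brightest genes and those 2-fold different in both pairs. Alternatives were quantile normalization, equal medians, 50 added to each signal, no signal filter or one of 200, the mean over the clusters of a symbol, moderation without a trend or robust, no sex term, leaving out each pool and, added after seeing the data, identical signals counted once (310 genes share all 4 signals with another). A search of the proteins for degrons was not run.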

Additional observations from a re-analysis of the deposited data

Results flagged for a closer look

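In 2 of the 39 measured mitotic genes the male and the female pair had opposite signs. Cenpa, the centromeric histone, had a log2 ratio of BBP to control of -0.3639 for males and 0.1634 for females. Racgap1, of centralspindlin, had -0.0233 for males and 0.1176 for females. Opposite signs were found in 5.13% of the measured mitotic genes, against 27.8% of all genes. The difference between the sexes was not tested in either gene, since 1 pool for each sex and exposure leaves no degree of freedom for it.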

How the results depend on the processing

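The pools limit every value, since 1 array stands for each sex and exposure. Counts of mitotic genes below 0 or at least 2-fold lower in both pairs stayed within 1.5 times in every scaling and filter tried. The count at least 1.5-fold lower (11) was 3 with quantile normalization, 2 with equal medians and 7 with 50 added. The medians of -0.60 in males and -0.50 in females were -0.45 and -0.41 with quantile normalization, -0.43 and -0.38 with equal medians and -0.45 and -0.41 with the median of all genes subtracted. The mitotic genes past limma (2) were 1 without a trend, where Pbk kept its call and Spc24 had an adjusted p of 0.0535, and 0 with quantile normalization, equal medians, 50 added, no filter, a filter of 200, identical signals counted once, no sex term or any pool left out (range 0 to 0). At an unadjusted p under 0.05 in limma the alternatives that kept all 4 pools gave 25 to 32 lower mitotic genes and 0 higher ones. These were counted among 41 mitotic genes with no filter, 36 with a filter of 200 and 39 otherwise. Over all genes the same settings gave 1182 to 2781 lower and 393 to 2283 higher genes, with the most of each with no filter. Over all genes, the 127 lower calls were 0 with quantile normalization, 29 with equal medians, 34 with 50 added, and 0 with no filter, a filter of 200, identical signals once, no sex term or a pool left out (range 0 to 0). The 154 higher calls were 86 with 50 added, 160 with equal medians, and 0 with quantile normalization, no filter, a filter of 200, identical signals once, no sex term or a pool left out (range 0 to 0). The 64 genes past the sex term were 1 with quantile normalization, 42 with 50 added, 4 with no filter and 21 with identical signals once. Cenpa (-0.10) was at 0.0321 with quantile normalization, 0.0414 with equal medians and 0.1075 without the control male pool, and Racgap1 (0.05) at -0.0068 without the BBP female pool. The other 37 measured mitotic genes stayed negative in 515 of 515 values, but some lay much nearer to 0: over 1.5 times nearer were 8 of the 39 with quantile normalization, 10 with equal medians and up to 3 with a pool left out. Mki67 (-0.35) was at -0.01 and Kif23 (-0.18) at -0.04 with quantile normalization. The cause of these shifts was not tested, other than that fits on 3 pools hold fewer samples and no sex term. A pool left out leaves a single pair, so pair counts and medians have no such value. The sex term pairs the pools by sex, and without it the mitotic genes past limma were 0, as given above; the labels carry no replicate numbers by which pools could be paired otherwise.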
